A study of Mus musculus with 27 samples.

Results

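The step from 3 h to 6 h of reperfusion was followed inside the hemisphere that had lost its blood supply. The comparison set 3 libraries of ipsilateral cortex at 6 h against 3 libraries of ipsilateral cortex at 3 h, chosen by side and time alone, out of 27 libraries in all, and it covered every gene in the table. All libraries came from C57BL6 mice of 7 to 8 weeks. In the stroke animals a nylon suture blocked the right middle cerebral artery for 35 min under isoflurane, with the common carotid artery tied, and was then withdrawn. The contralateral cortex at 6 h and at 3 h, from the side that was not occluded, gave the same step with 3 libraries a time. Sham animals had the same anaesthesia and exposure of the arteries with no filament, and their 3 libraries served as a baseline. The libraries held total RNA depleted of ribosomal RNA. Each replicate number stands for animals operated on a separate day. The p-values rest on the spread between libraries within a group, estimated over all 9 groups with no term for day. Differences between days and between animals cannot be told apart in it. Whether the 2 hemispheres at a time come from the same animals, and from which side and at what time sham tissue was taken, is not given in the labels.

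After a transient occlusion of this artery, the tissue it feeds passes from energy failure to reperfusion, in which oxygen and glucose return to cells with damaged proteins and depleted stores. Transcription in these hours is known for heat shock factors, which induce chaperones, for the Atf4 branch of the stress response, which follows phosphorylation of the initiation factor eIF2alpha, and for growth factor signalling through the kinase ERK, which induces its own inhibitors. Glial activation and the entry of blood leukocytes are known as later events.

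The 6 ipsilateral libraries held 31.5 to 48.8 M counts, with 37.9 to 45.0 M at 6 h and 31.5 to 48.8 M at 3 h. Markers of cortical neurons and glia were present in all 6, with 679 to 814 CPM (counts scaled to the normalized size of each library) of Slc17a7, the vesicular glutamate transporter of cortical excitatory neurons. Markers of tissue next to the cortex varied between libraries. The summed level of 12 choroid plexus markers was 631, 158 and 141 CPM in replicates 1, 2 and 3 at 6 h, against 1288, 163 and 176 CPM at 3 h. The summed level of 13 striatal neuron markers was 425, 378 and 697 CPM at 6 h, against 1002, 686 and 415 CPM at 3 h. Replicate 1 at 3 h thus held the most of both. None of the 12 choroid plexus markers and none of the 13 striatal markers passed the test, and all of them had a negative log2 fold change (medians -1.08 and -0.51). The part of these tissues in the results below was not tested. The counts of genes that passed and the genes named below were also computed without each library in turn, while list medians and list counts were not.

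Nearly all genes that passed the threshold between 3 h and 6 h in the ipsilateral cortex were higher at 6 h. Of 18087 genes tested, 49 rose, which is 0.271%, and 1 fell, which is 0.00553% (edgeR quasi-likelihood test, Benjamini-Hochberg adjusted p under 0.05). The rises ran from 1.52-fold to 8.82-fold with a median of 2.01-fold, and 29 of the 49 were at least 2-fold. At an unadjusted p under 0.05 there were 1254 genes higher (6.93%) and 563 lower (3.11%), and 1919 genes (10.6%) had all 3 libraries at 6 h above all 3 at 3 h, against 1286 (7.11%) with all 3 below. The median log2 fold change of all genes was -0.0042.

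**Figure D1:**
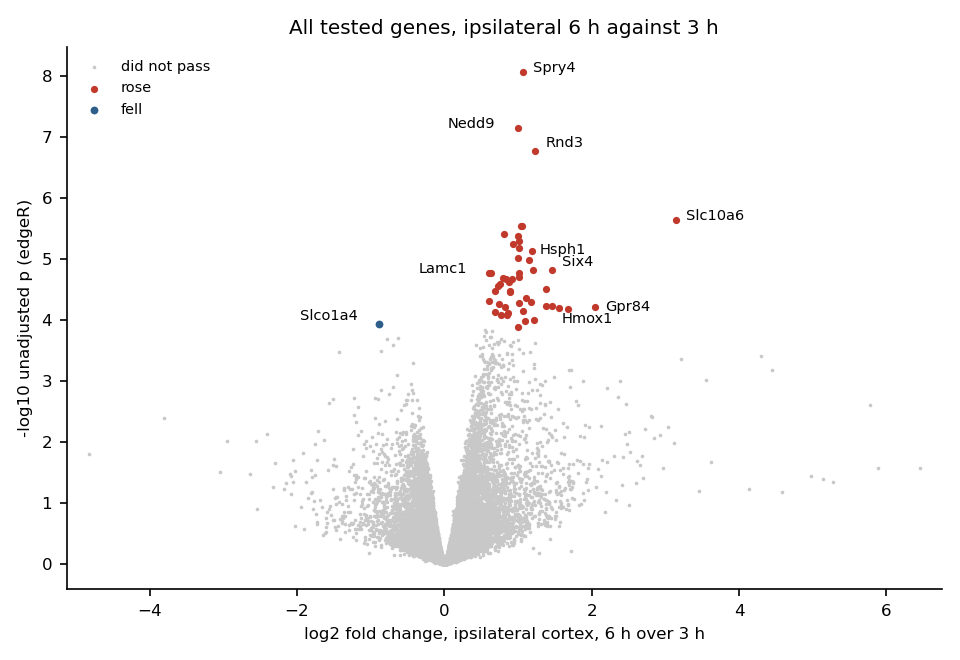
Each point is 1 of 18087 tested genes. The x axis gives the log2 fold change of ipsilateral cortex at 6 h over 3 h and the y axis minus log10 of the unadjusted p. The 49 genes that rose are red and lie to the right of 0.6, and Slco1a4, the 1 gene that fell, is blue at -0.89.

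The number of genes past the threshold depended on single libraries. Without replicates 1, 2 and 3 at 6 h, 11, 3 and 122 genes rose. Without replicates 1, 2 and 3 at 3 h, 3, 20 and 14 rose. The 1817 genes at an unadjusted p under 0.05 became 1012 without replicate 2 at 6 h and 1376 to 2093 without any other library. At 6 h replicate 3 was the lowest of the 3 libraries in 43 of the 49 genes and replicate 2 the highest in 39, and at 3 h replicate 1 was the lowest in 35. Of the 50 genes that passed, 47 missed the threshold in at least 1 of these 6 fits, with a largest adjusted p of 0.0958 to 0.484 by edgeR. Spry4, Rnd3 and Nedd9 passed without any single library and in every other alternative run, and none of the 50 genes changed direction in any of them.

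Spry4 encodes a Sprouty protein, an inhibitor of receptor tyrosine kinase signalling to ERK (mm10, chromosome 18, 38586247 to 38601415, minus strand). It had 20.8, 25.2 and 20.4 CPM at 6 h, against 9.70, 11.7 and 10.3 CPM at 3 h. The groups were far apart, with a rise of 2.09-fold (log2 fold change 1.06 ± 0.13, SE; edgeR adjusted p = 0.000151, at most 0.0059 without any 1 library). In sham cortex Spry4 averaged 16.4 ± 1.16 CPM (SD, n = 3), between the levels at 6 h and at 3 h.

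Rnd3 encodes a small GTP-binding protein that loosens the actin cytoskeleton (chromosome 2, 51130438 to 51149111, minus strand). It had 20.9, 21.1 and 12.3 CPM at 6 h, against 6.64, 9.26 and 7.2 CPM at 3 h. It rose 2.34-fold (1.23 ± 0.18, edgeR adjusted p = 0.00103). Nedd9, a docking protein of focal adhesions (chromosome 13, 41309581 to 41487362, minus strand), was chosen for description after its values were seen, as it lies outside the 15 largest rises. It had 33.6, 32.3 and 20.7 CPM at 6 h, against 13.5, 15.9 and 13.7 CPM at 3 h, and rose 2.00-fold (1.00 ± 0.14, edgeR adjusted p = 0.000636). In both genes replicate 3 was the lowest at 6 h and still lay above every library at 3 h. Their means at 12 h were 12.0 ± 2.15 CPM for Rnd3 and 13.7 ± 1.89 CPM for Nedd9 (SD, n = 3).

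**Figure D2:**
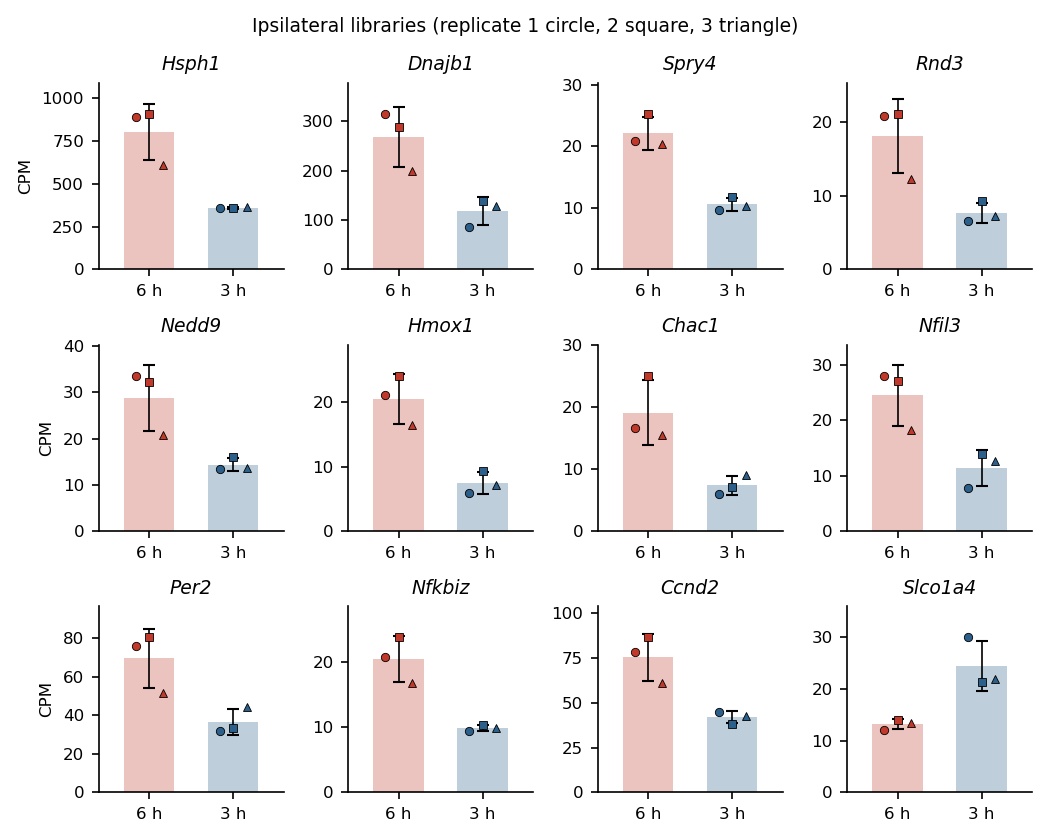
Levels in CPM of 12 genes that passed the test, in ipsilateral cortex at 6 h (red) and at 3 h (blue). Bars are means, error bars SD (n = 3) and points single libraries. In 11 panels every library at 6 h lies above every library at 3 h, and in Slco1a4 every library at 6 h lies below.

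Spry4 belongs to the ERK feedback regulators, which are the Sprouty and Spred inhibitors and the dual specificity phosphatases (Dusp) that dephosphorylate MAP kinases. It was the only 1 of the 15 tested that rose. All 15 had a positive log2 fold change, with a median of 0.56, against 49.2% of all genes. Of the 15, 10 had an unadjusted p under 0.05 with higher levels at 6 h, against 6.93% of all genes. Dusp6, the phosphatase most specific for ERK, had 140, 127 and 91.0 CPM at 6 h, against 62.7, 69.4 and 90.3 CPM at 3 h (log2 fold change 0.69 ± 0.18, edgeR adjusted p = 0.0821). Spry2 had 49.1, 49.3 and 40.9 CPM at 6 h, against 28.1, 29.7 and 37.0 CPM at 3 h, and missed the threshold by the same margin (0.56 ± 0.14). Spry1 (0.66 ± 0.18), Dusp16 (0.64 ± 0.16) and Dusp4 (0.70 ± 0.24) also had no overlap between the groups. Dusp1, a broad immediate early phosphatase, had 62.3, 48.1 and 34.4 CPM at 6 h, against 28.7, 41.3 and 37.5 CPM at 3 h, which overlap. In the contralateral cortex the same 15 genes had a median log2 fold change of -0.06 with 5 positive, against 49.9% of all genes.

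Most chaperones too had higher levels at 6 h. Of 20 inducible cytosolic chaperones and their partners Hsph1 and Dnajb1 rose, 18 had a positive log2 fold change (median 0.55), against 49.2% of all genes, and 12 had an unadjusted p under 0.05 with higher levels at 6 h, against 6.93%. Hsph1 encodes HSP110, which exchanges the nucleotide of HSP70 (chromosome 5, 149614287 to 149636376, minus strand). It had 889, 908 and 612 CPM at 6 h, against 361, 356 and 367 CPM at 3 h, a 2.22-fold rise (1.15 ± 0.21, edgeR adjusted p = 0.0133). Dnajb1, the HSP40 protein that delivers clients to HSP70 (chromosome 8, 83608193 to 83612653, plus strand), had 315, 289 and 200 CPM at 6 h, against 86.3, 139 and 129 CPM at 3 h, a 2.27-fold rise (1.18 ± 0.24, edgeR adjusted p = 0.0273). Neither pair of groups overlapped.

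Hspa1a, the inducible HSP70 itself, showed a step of the same size with more spread. It had 421, 450 and 342 CPM at 6 h, against 117, 211 and 191 CPM at 3 h, and 3.63 ± 0.709 CPM in sham cortex (SD, n = 3). The groups did not overlap, and the log2 fold change of 1.22 ± 0.31 missed the threshold (edgeR adjusted p = 0.111). Its near-identical neighbour Hspa1b had 741, 794 and 546 CPM at 6 h, against 193, 363 and 322 CPM at 3 h, and how reads were shared out among these 2 genes is uncertain. The mitochondrial chaperonin pair Hspe1 and Hspd1 had log2 fold changes of 0.77 ± 0.18 and 0.72 ± 0.17 (edgeR adjusted p = 0.0627 and 0.0634). The small heat shock protein gene Hspb1 had 0.89 ± 0.27 and the HSP70 partner gene Bag3 0.70 ± 0.25. The constitutive chaperone Hspa8, already at 1453 to 1561 CPM in the libraries at 3 h, had 0.27 ± 0.15. In the contralateral cortex the median of the 20 genes was -0.03.

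Heat shock factors bind inverted repeats of GAA, and the promoters of the list were searched on both strands for GAA, TTC and GAA in a row with any 2 bases between neighbours. Promoters of 300 bases (250 before to 50 after the start, RefSeq, GRCm38.p6) were on hand for 16 of the 20 genes. Of these 16 promoters 4 held the letters, against 0.610% of the promoters of 12950 tested genes. They were Hsph1, Hspe1, Hspd1 and Chordc1, and Hspe1 and Hspd1 share 1 promoter that runs both ways. The stretches of Hsph1 (chr5:149636280-149636307, minus strand) and Hspe1 (chr1:55088057-55088084, plus strand), the chaperone with the smallest p and the leading member of the shared promoter, are shown 5′ to 3′ with the match in capitals. In Hsph1 the match reads on the opposite strand.
Hsph1: ctgcagaTTCTGGAAAGTTCtcctcagt
Hspe1: cgttctaGAACCTTCCGGAAggccccgc
Of these 4 genes only Hsph1 passed the test, and Chordc1 had a log2 fold change of 0.15 ± 0.20. Whether a match goes with the step was not tested. Of all 49 risers, in or outside the lists, 32 had a promoter on hand, and 1 of these held the letters, Hsph1 (3.125%). A match describes the letters and not a site in use, and the promoter of Dnajb1 held no match in this window.

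**Figure D3:**
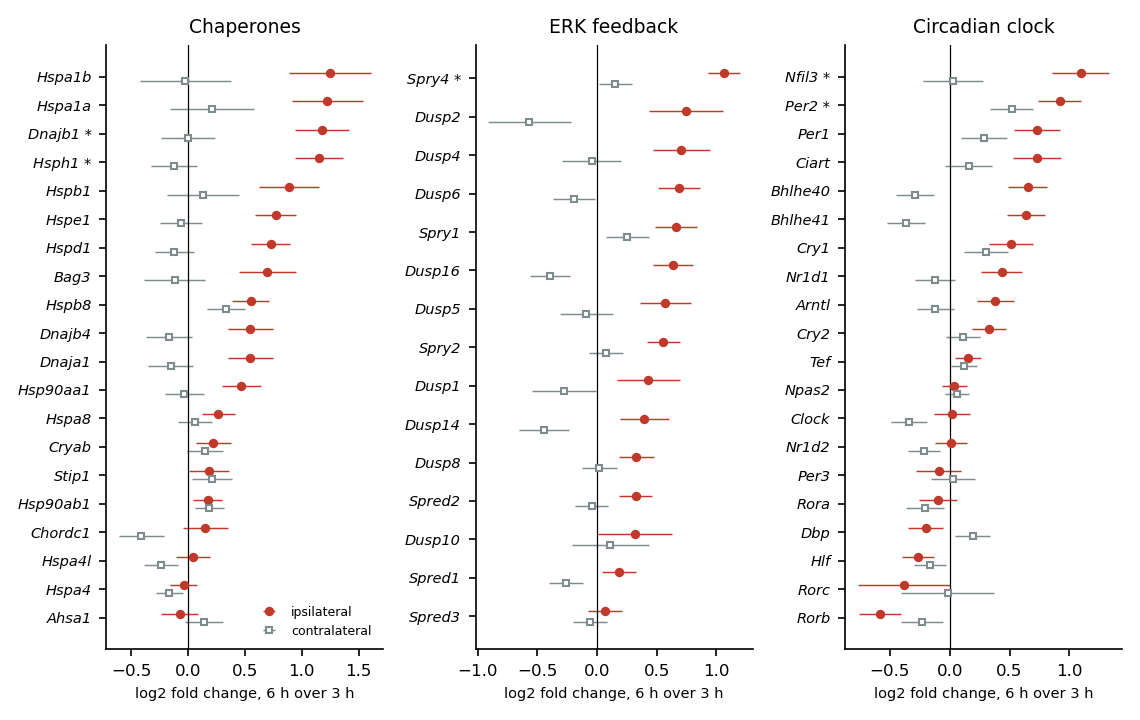
Log2 fold change at 6 h over 3 h for every tested member of 3 gene lists, in ipsilateral cortex (red circles) and contralateral cortex (open grey squares). Error bars are SE and an asterisk marks the 5 members that passed the test ipsilaterally. All 15 ERK feedback genes and 18 of 20 chaperones lie right of 0 ipsilaterally.

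The stress enzymes Hmox1 and Chac1 were among the largest rises. Hmox1 encodes the inducible heme oxygenase, which breaks heme down to iron, carbon monoxide and biliverdin (chromosome 8, 75093621 to 75100589, plus strand). It had 21.1, 24.1 and 16.4 CPM at 6 h, against 5.96, 9.32 and 7.07 CPM at 3 h, a 2.74-fold rise (1.46 ± 0.30, edgeR adjusted p = 0.0276). Its mean then reached 35.1 ± 15.2 CPM at 12 h and 38.8 ± 14.4 CPM at 24 h (SD, n = 3). It was the only riser among 21 Nrf2 antioxidant and metallothionein genes, whose median log2 fold change was -0.08. Txnrd1, the thioredoxin reductase, had 0.48 ± 0.12 with no overlap (edgeR adjusted p = 0.0681), and 5 of the 21 had an unadjusted p under 0.05 with higher levels at 6 h, against 6.93% of all genes.

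Chac1 encodes an enzyme that cleaves glutathione and is a known target of Atf4 (chromosome 2, 119351229 to 119354381, plus strand). It had 16.6, 25.1 and 15.5 CPM at 6 h, against 5.90, 7.14 and 9.0 CPM at 3 h, a 2.60-fold rise (1.38 ± 0.27, edgeR adjusted p = 0.0206). Of 24 genes of the Atf4 pathway it was the only riser. Of these 24 genes 21 had a positive log2 fold change (median 0.33), against 49.2% of all genes, and 10 had an unadjusted p under 0.05 with higher levels at 6 h, against 6.93%. The secreted glycoprotein gene Stc2 had 12.0, 15.9 and 9.49 CPM at 6 h, against 4.08, 4.29 and 4.96 CPM at 3 h (1.49 ± 0.39, edgeR adjusted p = 0.107). Ppp1r15a (GADD34), the inducible subunit of the phosphatase that resets eIF2alpha, had 0.78 ± 0.22 (edgeR adjusted p = 0.134). Its constitutive counterpart Ppp1r15b, which stands outside the list, rose. It had 141, 156 and 116 CPM at 6 h, against 72.8, 82.5 and 79.9 CPM at 3 h (0.81 ± 0.14, edgeR adjusted p = 0.00929).

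The letters TGATGNAA are a form of the composite element that Atf4 binds with C/EBP partners. They stood on either strand in 7 of the 22 Atf4 pathway promoters on hand, against 3.04% of those of all tested genes. Of the 32 risers with a promoter on hand 1 held them, Chac1 (3.125%). Letters of other factors were searched too. Of the 32, AP-1 letters stood in 0, against 6.72% of all tested promoters, and a shorter heat shock core in 1, against 7.29%. NF-kappaB letters stood in 0, against 1.71%. E-box letters stood in 6, against 10.7%, and antioxidant response letters in 7, against 16.5%. In the lists, E-box letters stood in 5 of 17 clock promoters and NF-kappaB letters in 2 of 14 NF-kappaB promoters. The stretches of Chac1 (chr2:119351042-119351064, plus strand), the riser of the list, and of the cystine transporter gene Slc7a11 (chr3:50443664-50443686, minus strand), which supplies the precursor of the glutathione that Chac1 cleaves, are shown 5′ to 3′ with the match in capitals. In Chac1 the match reads on the opposite strand.
Chac1: cctgccgTTGCATCActcctgcc
Slc7a11: atgtggcTGATGCAAacctggag
Slc7a11 had 54.4, 62.9 and 43.8 CPM at 6 h, against 36.3, 39.5 and 58.8 CPM at 3 h. The groups overlapped (0.26 ± 0.28), and whether a match goes with a step was not tested.

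Growth arrest and cell death genes were mostly higher at 6 h with no single call. Of 25 p53 target, Gadd45 and BCL2 family genes none rose, 24 had a positive log2 fold change (median 0.36), against 49.2% of all genes, and 11 had an unadjusted p under 0.05 with higher levels at 6 h, against 6.93%. The stress kinase gene Plk3 had 18.9, 19.5 and 13.4 CPM at 6 h, against 7.19, 9.85 and 9.96 CPM at 3 h (0.94 ± 0.22, edgeR adjusted p = 0.0630). Gadd45b had 0.85 ± 0.25, the cell cycle inhibitor gene Cdkn1a 0.80 ± 0.27, and Bcl2l11, which encodes the death protein Bim, 0.55 ± 0.19. In these 3 genes too the libraries of the 2 times did not overlap. The contralateral median of the list was 0.05. Cyclin D2 (Ccnd2), which drives entry into the cell cycle, rose. It had 78.1, 86.6 and 61.2 CPM at 6 h, against 44.7, 38.4 and 42.9 CPM at 3 h (0.84 ± 0.18, edgeR adjusted p = 0.0320).

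Of 20 circadian clock genes 14 had a positive log2 fold change (median 0.24), against 49.2% of all genes. At an unadjusted p under 0.05, 10 were higher at 6 h, against 6.93% of all genes, and 1 lower, against 3.11%. Both risers among the 20 are repressors. Nfil3, a basic leucine zipper repressor that competes at D-box elements, had 28.0, 27.1 and 18.2 CPM at 6 h, against 7.75, 13.8 and 12.7 CPM at 3 h (1.09 ± 0.24, edgeR adjusted p = 0.0379). Per2, of the core Period repressors, had 76.0, 80.5 and 51.6 CPM at 6 h, against 32.0, 33.6 and 44.4 CPM at 3 h (0.92 ± 0.18, edgeR adjusted p = 0.0167). Per1 (0.73 ± 0.19), Ciart (0.73 ± 0.20), Bhlhe40 (0.65 ± 0.16) and Bhlhe41 (0.64 ± 0.16), all repressors of the clock as well, had no overlap and adjusted p between 0.0750 and 0.111. Rorb, an orphan receptor that also marks cortical layer neurons, had 82.5, 69.2 and 62.2 CPM at 6 h, against 114, 84.0 and 122 CPM at 3 h (-0.58 ± 0.18, edgeR adjusted p = 0.175). The clock time of sampling is not given in the sources used here. Per2 was also higher at 6 h in the contralateral cortex, with 35.4 ± 3.98 CPM against 24.8 ± 5.41 CPM at 3 h (SD, n = 3 each; log2 fold change 0.52, edgeR adjusted p = 0.501).

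Glucocorticoid-responsive genes had positive medians in both hemispheres, and none of the 20 passed on either side. Ipsilaterally 20 of 20 had a positive log2 fold change (median 0.41), against 49.2% of all genes, and 11 had an unadjusted p under 0.05 with higher levels at 6 h, against 6.93%. Contralaterally 16 of 20 were positive, against 49.9% of all genes (median 0.37), and 7 had an unadjusted p under 0.05 with higher levels at 6 h, against 3.96% of all genes. Fkbp5, a chaperone of the glucocorticoid receptor, had 44.2, 54.0 and 58.0 CPM at 6 h, against 29.9, 31.2 and 27.1 CPM at 3 h (0.82 ± 0.28 ipsilaterally and 0.77 contralaterally). Angptl4, an inhibitor of lipoprotein lipase, had 0.88 ± 0.25 ipsilaterally and 1.09 contralaterally. The metallothionein genes Mt1 and Mt2, which bind zinc and copper, had 0.57 ± 0.16 and 0.96 ± 0.33 ipsilaterally and 0.41 and 0.48 contralaterally.

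**Figure D4:**
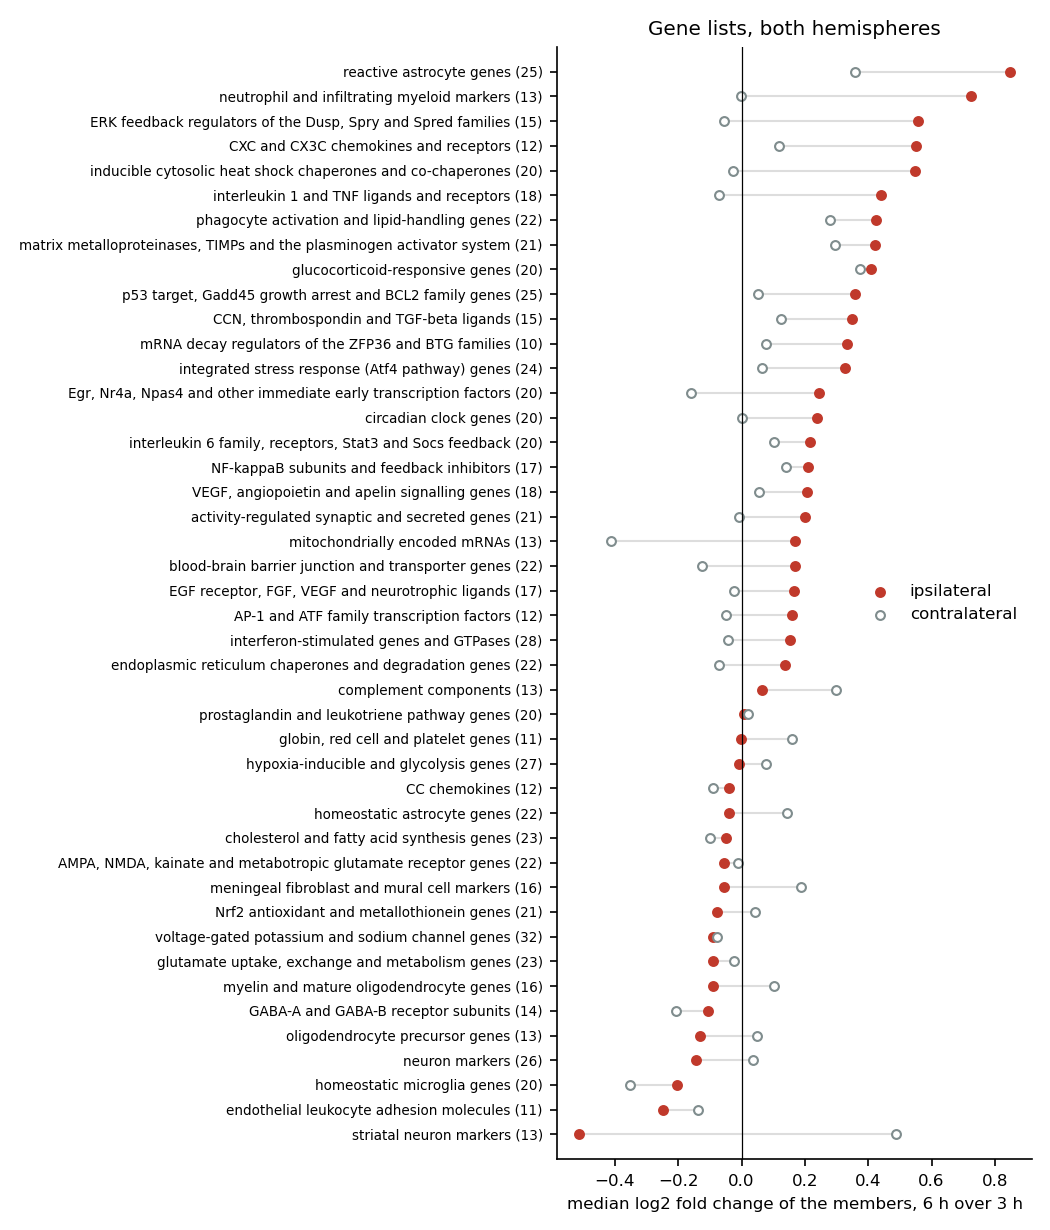
Median log2 fold change at 6 h over 3 h of the members of 44 gene lists, with the number of tested members in brackets, in ipsilateral (red) and contralateral cortex (open grey). Reactive astrocyte genes have the highest ipsilateral median (0.85) of the lists drawn and striatal neuron markers the lowest (-0.51). The choroid plexus list (-1.08 and 2.27) and the 3 tested lymphocyte markers are not drawn.

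Among inflammatory regulators Nfkbiz and Map3k14 rose. Nfkbiz encodes the nuclear cofactor IkappaBzeta of NF-kappaB target genes (chromosome 16, 55811375 to 55838899, minus strand). It had 20.8, 23.8 and 16.8 CPM at 6 h, against 9.36, 10.4 and 9.87 CPM at 3 h, a 2.07-fold rise (1.05 ± 0.18, edgeR adjusted p = 0.00860). Map3k14 encodes NIK, the kinase of the noncanonical NF-kappaB pathway. It had 11.4, 15.8 and 9.72 CPM at 6 h, against 4.11, 5.54 and 6.48 CPM at 3 h (1.19 ± 0.22, edgeR adjusted p = 0.0108). Of 17 NF-kappaB subunits and inhibitors only Nfkbiz rose, with a median of 0.21. Of the 17, 4 had an unadjusted p under 0.05 with higher levels at 6 h, against 6.93% of all genes. Nfkbid, a relative of Nfkbiz, had 5.26, 7.28 and 5.91 CPM at 6 h, against 2.41, 2.85 and 3.51 CPM at 3 h (1.07 ± 0.26, edgeR adjusted p = 0.0749).

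The chemokines and cytokines themselves gave no call. Of 18 interleukin 1 and TNF ligands and receptors (median 0.44), 4 had an unadjusted p under 0.05 with higher levels at 6 h, against 6.93% of all genes. Of 20 interleukin 6 family, receptor and feedback genes (median 0.22), 4 did so too. The contralateral medians of these lists were -0.07 and 0.10. None of 12 CC chemokines reached even an unadjusted p under 0.05 (median -0.04), and Ccl2, the monocyte attractant, had 1.21, 0.809 and 2.07 CPM at 6 h, against 1.48, 2.07 and 1.58 CPM at 3 h. Of 12 CXC and CX3C chemokines and receptors (median 0.55), 3 had an unadjusted p under 0.05 with higher levels at 6 h, against 6.93% of all genes. Cxcl1, the neutrophil attractant, had 2.54, 3.18 and 1.73 CPM at 6 h, against 0.556, 0.585 and 0.869 CPM at 3 h (1.89 ± 0.65, edgeR adjusted p = 0.272). The summed level of 13 neutrophil markers was 6.92 to 7.83 CPM at 6 h and 5.91 to 7.10 CPM at 3 h, against 5.74 to 6.60 CPM in sham cortex. None of the 13 passed, and 10 had a positive log2 fold change (median 0.73), against 49.2% of all genes. No overlap with higher levels at 6 h was found for 4 of the 13, against 10.6% of all genes. Csf3r, the G-CSF receptor gene and the highest of them, had 2.13, 1.70 and 1.73 CPM at 6 h, against 2.78, 2.67 and 3.07 CPM at 3 h (-0.61 ± 0.22).

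Reactive astrocyte genes had the highest median of the lists drawn, 0.85 over 25 genes, with 23 positive (49.2% of all genes), 11 at an unadjusted p under 0.05 with higher levels at 6 h (6.93% of all genes), and 1 riser. That was Slc10a6, of the bile acid transporter family, whose known substrates are sulfated steroids. It had 2.54, 5.85 and 2.02 CPM at 6 h, against 0.154, 0.546 and 0.434 CPM at 3 h, an 8.82-fold rise, the largest of all (3.14 ± 0.53, edgeR adjusted p = 0.00860). This fold rests on a low level, with 425 counts in all at 6 h and 47 at 3 h. Osmr, the oncostatin M receptor, had 19.5, 27.9 and 14.7 CPM at 6 h, against 7.23, 8.52 and 12.9 CPM at 3 h (1.12 ± 0.32, edgeR adjusted p = 0.152). The filament gene Vim had 35.8, 53.8 and 34.8 CPM at 6 h, against 15.3, 23.7 and 24.8 CPM at 3 h (0.96 ± 0.28). Gfap, the classical filament of reactive astrocytes, had 93.7, 153 and 138 CPM at 6 h, against 71.7, 100 and 82.2 CPM at 3 h, which overlap (0.59 ± 0.27, edgeR adjusted p = 0.464). The list was also higher at 6 h contralaterally, with 19 of 25 positive, against 49.9% of all genes, and a median of 0.36.

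Gpr84, a receptor for medium-chain fatty acids on activated microglia and macrophages, lies below the level set for naming and was chosen after its values were seen. It had 0.969, 1.93 and 2.02 CPM at 6 h, against 0.309, 0.410 and 0.465 CPM at 3 h (2.05 ± 0.43, edgeR adjusted p = 0.0276), and averaged 7.49 CPM at 24 h. Of 22 phagocyte activation genes none passed and 19 were positive (median 0.43), against 49.2% of all genes. Contralaterally 19 of the 22 were positive as well (median 0.28), against 49.9% of all genes. Of 20 genes of resting microglia none passed, 16 had a log2 fold change below 0 (median -0.20), and 6 had an unadjusted p under 0.05 with lower levels at 6 h, against 3.11% of all genes. P2ry12, their purinergic receptor, had 9.52, 6.24 and 6.60 CPM at 6 h, against 15.1, 11.3 and 13.9 CPM at 3 h (-0.85 ± 0.29 ipsilaterally, -1.03 contralaterally). P2ry13 had -0.86 ± 0.21 ipsilaterally and -0.76 contralaterally. The contralateral median of this list was -0.35. In bulk tissue fewer cells of a type and less RNA per cell cannot be told apart.

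Immediate early genes gave no call. Of 12 AP-1 and ATF factors none passed and 1 had an unadjusted p under 0.05, against 10% of all genes. Jun had 146, 131 and 87.7 CPM at 6 h, against 44.1, 73.5 and 66.4 CPM at 3 h (0.99 ± 0.26, edgeR adjusted p = 0.111). Fos had 168, 123 and 78.9 CPM at 6 h, against 58.1, 98.7 and 79.4 CPM at 3 h, and Atf3 had 29.6, 30.7 and 15.6 CPM at 6 h, against 11.4, 19.9 and 15.5 CPM at 3 h. In both the groups overlapped (0.64 ± 0.52 and 0.69 ± 0.41). Of 20 Egr, Nr4a and related factors none passed and 18 were positive (median 0.25), against 49.2% of all genes. Of the 20, 5 had an unadjusted p under 0.05 with higher levels at 6 h, against 6.93% of all genes. Contralaterally 2 of the 20 were positive (median -0.16), against 49.9% of all genes. Egr2 had 15.9 to 19.7 CPM at 6 h, against 6.02 to 10.7 CPM at 3 h. Csrnp1, an immediate early nuclear protein, had 44.4, 40.1 and 31.1 CPM at 6 h, against 16.3, 21.3 and 20.3 CPM at 3 h (0.99 ± 0.23, edgeR adjusted p = 0.0627). The synaptic gene Arc had 395, 489 and 292 CPM at 6 h, against 111, 176 and 193 CPM at 3 h (1.29 ± 0.35, edgeR adjusted p = 0.135), and 233 CPM in sham cortex, between the levels at 6 h and at 3 h. Of 21 activity-regulated synaptic and secreted genes none passed, and 8 had an unadjusted p under 0.05 with higher levels at 6 h, against 6.93%.

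The single fall was in a transporter of brain vessels. Slco1a4 encodes an organic anion transporter of the blood-brain barrier (chromosome 6, 141805440 to 141856199, minus strand). It had 12.1, 14 and 13.3 CPM at 6 h, against 30.0, 21.3 and 21.9 CPM at 3 h, 1.85-fold lower (-0.89 ± 0.20, edgeR adjusted p = 0.0423). With surgery day as a replicate block it missed the threshold (edgeR adjusted p = 0.0533), and without any 1 of the 6 libraries it missed it as well. The contralateral cortex had 18.5 ± 4.55 CPM at 6 h, against 27.8 ± 7.40 CPM at 3 h (SD, n = 3 each; -0.59). Of 22 barrier genes it was the only gene that passed, and 16 had a positive log2 fold change (median 0.17), against 49.2% of all genes. The junction gene Cdh5 had 15.5, 21.6 and 17.1 CPM at 6 h, against 9.39, 10.0 and 11.9 CPM at 3 h (0.79 ± 0.37), and the efflux pump gene Abcb1a had 13.2, 17.8 and 16.8 CPM at 6 h, against 24.2, 15.1 and 22.0 CPM at 3 h (-0.35 ± 0.16).

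Neuronal and astrocytic housekeeping genes showed no step that passed. None of 26 neuron markers passed. Of the 26, 22 were below 0 (median -0.14) and 4 above, against 49.2% of all genes above 0. An unadjusted p under 0.05 with lower levels at 6 h was found for 4, against 3.11% of all genes. Stmn2, a microtubule regulator of neurons, had 101, 79.4 and 98.3 CPM at 6 h, against 122, 111 and 117 CPM at 3 h (-0.33 ± 0.12). Pvalb, of fast-spiking interneurons, had -0.48 ± 0.20. The glutamate transporter genes Slc1a2 and Slc1a3 had -0.09 ± 0.14 and -0.0033 ± 0.144, and Glul, which turns glutamate into glutamine in astrocytes, had -0.0062 ± 0.115. In these 3 genes the groups overlapped.

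The remaining risers held further regulators of transcription, RNA and the cell surface. Six4, a homeobox factor, had 11.7, 12.7 and 6.52 CPM at 6 h, against 2.69, 4.21 and 4.28 CPM at 3 h, a 2.75-fold rise (1.46 ± 0.28, edgeR adjusted p = 0.0160). Wisp1 (Ccn4), a matricellular protein of the CCN family, rose 2.30-fold, the collagen gene Col5a3 2.61-fold, the zinc finger gene Zfp408 2.16-fold, Morc4, of the MORC ATPase family, 2.09-fold, and 1600002K03Rik, of no stated function, 2.94-fold. Outside the naming rule, and chosen after their values were seen, are Rgs16, an inhibitor of G protein signalling (2.03-fold), the ephrin ligand gene Efnb1 (2.02-fold), the inward rectifier potassium channel gene Kcnj2 (1.67-fold), the splicing repressor gene Ptbp1 (1.71-fold) and the laminin gene Lamc1 (1.52-fold). Rtl1, an imprinted gene derived from a retrotransposon, rose 1.90-fold, and Uspl1, also chosen after its values were seen, 2.02-fold. On the opposite strand Rtl1 overlaps microRNA genes, Uspl1 overlaps Hmgb1 and Ptbp1 overlaps Plppr3. Spry4, Nedd9, Slc10a6, Gpr84, Col5a3, Rgs16, Fat4, Ccnd2, Ppp1r15b, Lamc1, Hspa1a, Atf3, Gfap and Slc1a2 overlap other annotated genes in the same way. The strand setting of the counts is not given in the sources used here, so reads of such pairs cannot be told apart. Map3k14, Nedd9, Lamc1, Ptbp1 and Rtl1 also overlap annotated genes on the same strand, and how such reads were counted is uncertain. Overlaps were not looked up for every gene described.

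In the contralateral cortex no gene passed between 3 h and 6 h (0 of 18087 by edgeR and 0 by DESeq2). Replicate 1 at 3 h stood apart there, with 36.7% of its counts from mitochondrial ribosomal RNA and a normalization factor of 0.845, and without it the count was still 0. At an unadjusted p under 0.05 there were 1739 genes (9.61%), 717 higher (3.96%) and 1022 lower (5.65%). That number was 847, 3075 and 3098 without replicates 1, 2 and 3 at 3 h, and 1228 to 1359 without 1 library at 6 h. Over the 49 genes that rose ipsilaterally the contralateral median log2 fold change was 0.05, with 30 of 49 positive, against 49.9% of all genes. The ipsilateral median was 1.01, a gap that the choice of genes by the ipsilateral libraries favours. At an unadjusted p under 0.05, Slc10a6 and Per2 were higher contralaterally at 6 h and Ccnd2 was lower, with 32.6 ± 1.61 CPM at 6 h against 46.6 ± 9.05 CPM at 3 h (SD, n = 3 each; -0.51). Outside the 49, Acer2, an alkaline ceramidase gene, had 0.69 ± 0.19 ipsilaterally and 0.84 contralaterally.

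Whether the step differed between the hemispheres was tested directly as an interaction. No gene passed (0 of 18087, smallest edgeR adjusted p = 0.0974), with 1633 genes (9.03%) at an unadjusted p under 0.05, of which 1088 (6.02% of all) had the larger step ipsilaterally. The 1633 became 976 without ipsilateral replicate 2 at 6 h and 1161 to 2418 without any other library. DESeq2 called 55 genes. The smallest p were those of Ccnd2 (difference of the log2 steps 1.36 ± 0.26), Rnd3 (1.34 ± 0.26), Rtl1 (1.17 ± 0.23), Nol4l (1.15 ± 0.23), Ppp1r15b (0.99 ± 0.20), Wisp1 (1.58 ± 0.33) and Spry4 (0.91 ± 0.19), all with the larger step ipsilaterally. Of the 49 risers 46 had an unadjusted interaction p under 0.05 with the larger step ipsilaterally, a count the choice of genes by the ipsilateral libraries favours. Slc10a6, Per2 and 1600002K03Rik were the other 3.

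Ipsilateral cortex at 12 h and 24 h and sham cortex use no library of the step, so they could be set against the genes it called. The tests are not independent, as the single fit shares its estimate of spread over all groups. A gene that passed the step is thereby favoured to pass against sham too. Of the 49 risers 41 were above sham at 12 h, when 6.58% of all genes were, and 38 were above sham at 24 h, when 11.3% were (edgeR adjusted p under 0.05). None was below sham at 12 h, when 3.72% of all genes were, and 1 was below at 24 h, when 10.9% were. These counts were 37 to 43 and 31 to 37 without any 1 library of these groups. The 8 that did not pass at 12 h were Plscr2, Rnd3, Spry4, Nedd9, Rtl1, Per2, Fat4 and Lamc1, which include all 3 genes that held without any single library in the step. The gene below sham at 24 h was Per2, with 37.0 ± 6.82 CPM against 54.8 ± 9.05 CPM in sham cortex (SD, n = 3 each). In 27 of the 49 the mean at 12 h was above that at 6 h. At 3 h the mean of 34 of the 49 lay above sham and that of 15 below, with Spry4 (10.6 CPM against 16.4 CPM in sham cortex) and Per2 (36.7 CPM against 54.8 CPM) among the 15.

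**Figure D5:**
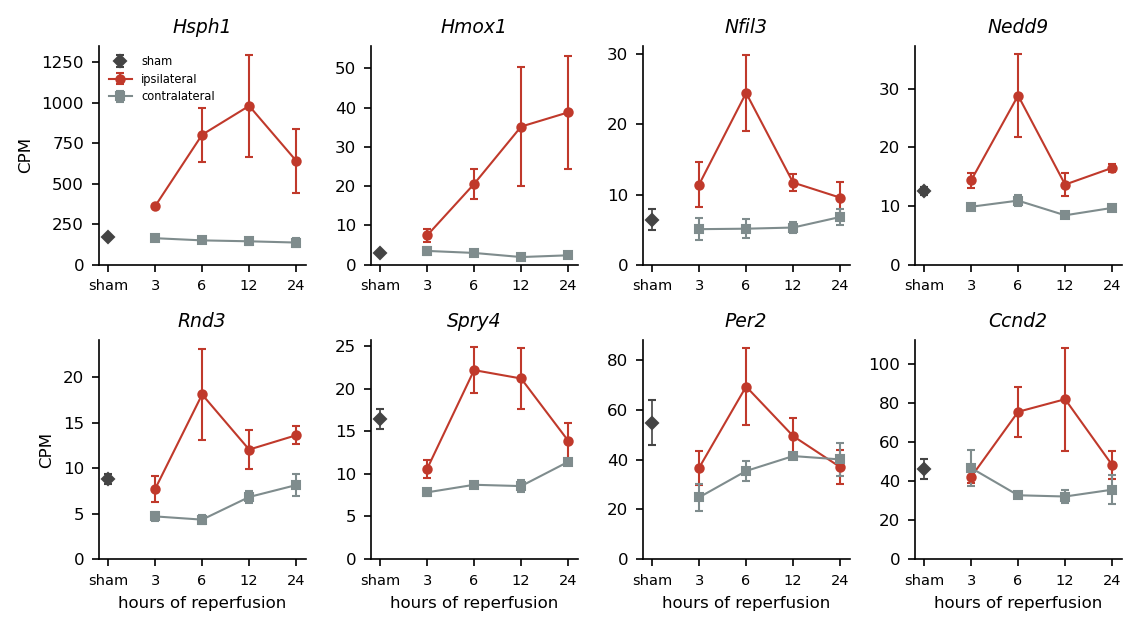
Mean level in CPM with SD (n = 3) in sham cortex (diamond), and at 3, 6, 12 and 24 h of reperfusion in ipsilateral (red circles) and contralateral cortex (grey squares), for 8 genes that rose in the step. Ipsilaterally Hmox1 had its highest mean at 24 h, 38.8 CPM, and Hsph1 and Ccnd2 had theirs at 12 h. Nedd9, Nfil3, Rnd3, Spry4 and Per2 had their highest mean at 6 h. Spry4, Per2, Rnd3 and Ccnd2 had ipsilateral means below sham at 3 h.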

How the data were processed

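The counts per gene were used as the authors deposited them. The submitters' processing notes name mm10, STAR 2.5.0a, featureCounts 1.4.3-p1 and edgeR. No source used here names the annotation or strand setting.

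Of 22340 rows 588 were empty, and filterByExpr (minimum count 10, minimum total 15) kept 18087, leaving out 0.0116% of the counts. A single fit held all 27 libraries, with a mean for each of 9 groups (edgeR 4.0.16, TMM, robust quasi-likelihood; R 4.3.3; limma 3.58.1), and p-values were adjusted by Benjamini-Hochberg over all tested genes. The fit was tested on simulated data. CPM are per library after TMM. The SE of a log2 fold change comes from the test statistic.

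The genes described and the 46 lists were chosen with earlier results of these data known. Named genes are the 15 largest rises and up to 12 falls that passed, did not overlap and averaged 5 CPM or more where higher, the smallest interaction and contralateral p, up to 6 members of a list by p or as its textbook example, and 7 followed genes. Not all are printed.

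The design text ties replicate numbers to surgery days, so they pair libraries. Deviations of same-numbered ipsilateral libraries at 6 h and 3 h correlated at 0.168, -0.121 and -0.0663. Alternatives were RLE size factors, 2 other filters, abundant RNAs left out, only the 6 compared libraries, a replicate block, DESeq2 1.42.0 and each library left out. Coordinates are from GENCODE M21.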

Additional observations from a re-analysis of the deposited data

How the results depend on the processing

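The 49 rises became 62 with a replicate block, 140 with only the 6 compared libraries, 95 with only these and a replicate block, and 190 with DESeq2. The other 4 settings of normalization and filter gave 48 to 53. Leaving out 1 library gave 3 to 122. The single fall became 5 with only the 6 compared libraries, 2 with only these and a replicate block, 16 with DESeq2, and 0 to 2 without 1 library. The replicate block kept 49 of the 50 calls and lost that of Slco1a4, and the 1 gene that fell with it was another. Slco1a4 was also not among the falls without any 1 library. The contralateral count stayed at 0 in every setting run. The interaction count was 55 with DESeq2 and 0 to 35 without 1 library, with 35 reached without ipsilateral replicate 3 at 6 h, and 0 otherwise, a replicate block included. Of the named genes only Slc1a3 and Glul changed sign, both near 0. Slc1a3 had a log2 fold change of 9.99914e-05 with a filter of at least 1 CPM in 3 libraries, and -0.0437 to 0.0385 without 1 library. Glul had -0.0984 to 0.0632 without 1 library. Alternatives for the comparisons with sham were chosen after seeing the data. Their total counts of 1864 genes at 12 h and 4008 at 24 h were 760 to 1960 and 2464 to 3219 without 1 library. The cause of these differences was not tested. How far depth limits genes of low level, such as Slc10a6, Gpr84 and Cxcl1, was not tested.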
